A study of Mus musculus with 21 samples.

Results

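Axon guidance ligands and receptors were followed in brain RNA from SAMP8 mice given the peptide HsTX1[R14A] or phosphate-buffered saline (PBS). The methods name whole brain. The genes were taken by symbol as the semaphorins of classes 3 to 7, plexins, neuropilins, ephrins, Eph receptors, Slits, Robo receptors, netrins, UNC5 receptors and Dcc, which gave 66 of the 16318 genes in the count table. Of the ephrin-B ligands the rule took Efnb1 and Efnb2, and Efnb3, which it did not name, is given beside them. The rule used names only and no measured value. Of the genes on the role lists, Epha1, Efna4 and Ntn3 were not analysed here. Unc5cl was caught by its name and is not a netrin receptor, so it is counted with the 66 but in no family.

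SAMP8 is a senescence-accelerated mouse strain, and all 21 mice analysed were of this strain. HsTX1[R14A], an analog of a scorpion toxin that blocks the potassium channel Kv1.3, was given to 9 mice (3 female, 6 male) at 1 mg/kg every other day by subcutaneous injection. PBS alone was given to 12 mice (6 female, 6 male). Dosing began at 4 months of age and lasted 8 weeks, so that the mice were 6 months old at the end, and all of them had gone through behavioral tests while dosed and were perfused with PBS before the brain was taken. The sample titles spell the peptide HxTX1[R14A]. Each mouse gave 1 library, and the question asked of these genes is whether their mRNA differed between treated and control brains, and whether the difference depended on sex.

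Guidance molecules are ligands, secreted or held on a membrane, that steer growing axons by binding receptors on the growth cone. Semaphorins act through plexins, with neuropilins as co-receptors for most of the secreted class 3. Slits act through Robo receptors, netrins attract through Dcc or repel through UNC5 receptors, and ephrins bind Eph receptor tyrosine kinases and can signal in both directions. Many of these genes stay expressed in the adult brain, where they are known for roles in synapses, dendritic spines, myelinating cells and vessels.

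Library totals ranged from 14917174 to 47613792 counts, and 62 of the 66 members had at least 10 counts in every mouse. Levels are given as TMM-scaled CPM (counts relative to the library total), and levels of different genes are compared only as CPM per kilobase of the longest transcript. The libraries differed in how counts depended on transcript length: the slope of log2 CPM (centered per gene) on log2 transcript length over all genes ran from -0.38 to 0.15 in the PBS mice (median -0.023) and from -0.14 to 0.23 in the HsTX1[R14A] mice (median 0.15). The median of this length slope was higher in the treated mice, the ranges overlapped, and its relation to treatment was not tested. Results with the slope taken into account stand beside those that follow. The library names also come in 2 forms, SAMP8 (10 PBS and 5 HsTX1[R14A] mice) and SAMP (2 and 4), whose meaning the labels do not give. The cerebellar genes Gabra6, Pcp2 and Fat2 were each under 1 CPM in 16 of the 21 mice, and Cbln3 was in 12. Gabra6 reached 90.1 CPM in HsTX1[R14A] male 74 against 0 to 15.04 CPM in the other 20. The other genes on the cerebellar list (Calb1, Zic1, Zic2, Cbln1 and Neurod1) were above 1 CPM in every mouse. The methods name whole brain, but how much cerebellum each sample held is uncertain and was not measured.

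All 66 members were expressed above the low-count filter, at mean levels that spread from 0.194 to 29.7 CPM per kb with a median of 3.9996. The highest were Sema7a, a membrane-anchored semaphorin that binds integrins and plexin C1 (29.7 CPM per kb), Epha4, an Eph receptor with broad ephrin binding (19.99), and Sema6b, a transmembrane semaphorin (19.7). The lowest were Epha2 (0.194), Unc5cl (0.201) and Sema3g (0.375). Epha2 had 0 counts in PBS female 103, the library with the fewest counts. Among receptors of one family the levels differed widely, as with Dcc (0.524 CPM per kb) and Unc5a (13.2 CPM per kb).

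**Figure D1:**
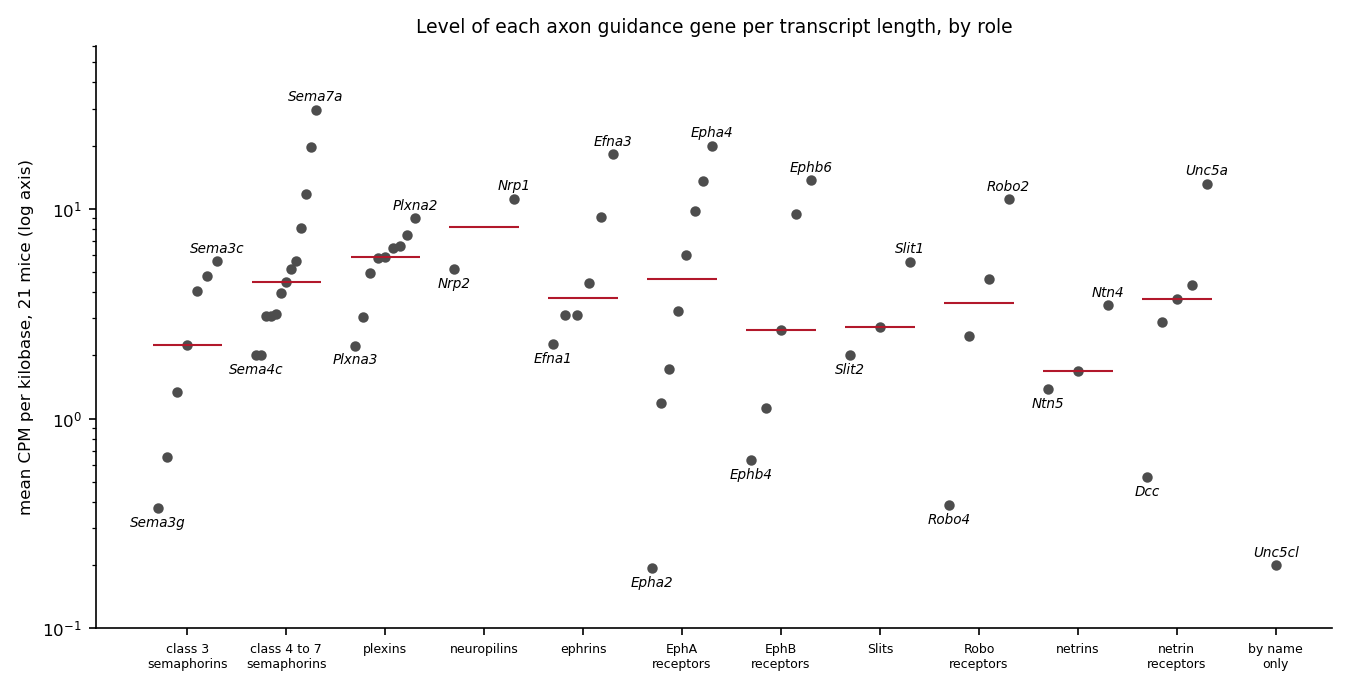
Mean level of each of the 66 members over the 21 mice, in CPM per kilobase of the longest transcript on a log axis, grouped by role, with the family median as a red line and the highest and lowest member of each family named. Levels run from 0.194 (Epha2) to 29.7 (Sema7a), with a median of 3.9996.

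With treatment, 31 of the 66 members were higher and 1, Efna1, was lower at an adjusted p of at most 0.05 (edgeR quasi-likelihood test with sex in the model, Benjamini-Hochberg over 16303 genes). Across all genes 15.5% were called higher and 16.1% lower, whereas 47.0% of the 66 members were called higher and 1.52% lower. The counts of calls per family that follow are to be read beside these shares of all genes. The log2 fold changes of the 31 ran from 0.26 to 1.02 with a median of 0.58, and Slit3 was the 1 member that changed at least 2-fold. Of the 66 members 59 had a positive log2 fold change, and their median was 0.43 against -0.013 over all genes tested. The 34 members that were not called ran from -0.25 to 0.58, and 11 of them had an unadjusted p under 0.05. For 0 members did the groups separate fully: PBS and HsTX1[R14A] mice overlapped for each called gene. In 24 of the 31, picked for being higher, at least 8 of the 9 treated mice lay above the PBS median. Neither count was made over all genes, so neither sets these members apart.

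The calls depended on how the length slope was treated. The members have long transcripts, with a median longest transcript of 5047.5 bases against 3283.5 over all genes tested, and 59 of 66 lie above that median. Of the 33 longer members 20 were called higher, and of the 33 shorter ones 11 were higher and 1 lower. The median log2 fold changes of the longer and shorter members were close, at 0.46 and 0.43, with 31 and 28 positive. With the length slope as a covariate in edgeR 0 members were called, as were 0.0% of all genes, the lowest adjusted p was 0.324, 10 members had an unadjusted p under 0.05 (11.4% of all genes did), and the median log2 fold change was -0.024. With each library's trend on length and GC content removed (limma), 10 members were higher (Slit3, Plxna1, Sema4f, Sema4d, Efnb1, Efnb2, Epha5, Epha6, Dcc and Unc5a) and 2 lower (Efna1 and Plxnb3), against 9.16% and 6.01% of all genes. The slope and the treatment overlap in these mice, and the part of the slope in the differences was not tested.

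**Figure D2:**
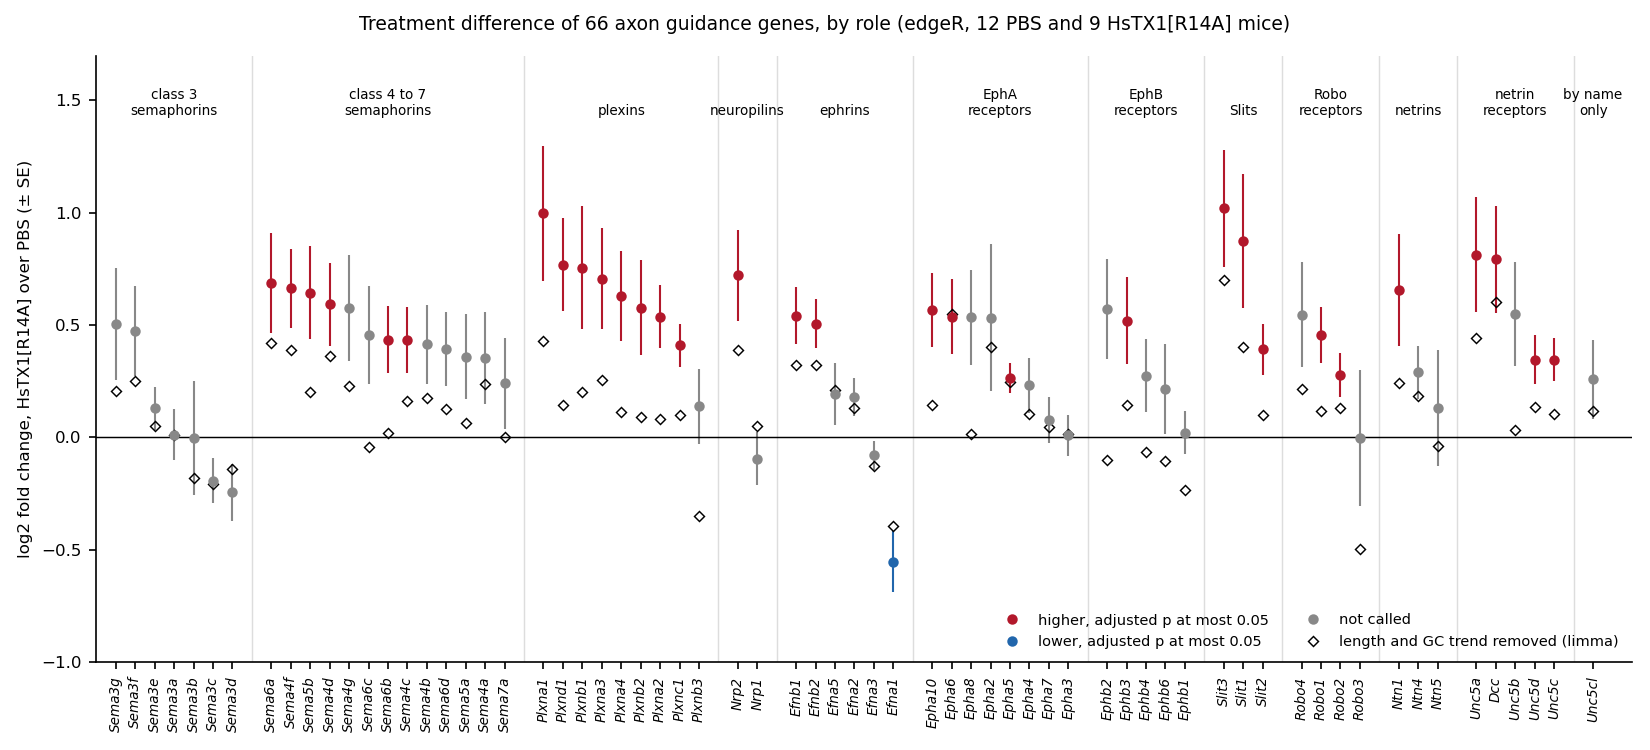
Treatment difference of each of the 66 members as log2 fold change (HsTX1[R14A] minus PBS) with its standard error (edgeR, 12 PBS and 9 HsTX1[R14A] mice), colored by call, and the same value after removal of length and GC trends as an open diamond. Of the 66 values 59 lie above 0, 31 are called higher and 1 lower, and most diamonds lie nearer to 0 than the circles.

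The member with the smallest treatment p was Efnb2, followed by Plxnc1 and Efnb1, among those with a RefSeq start outside the annotated gene. The 250 bases before their RefSeq start (GRCm38.p6) are printed on the gene's strand, 5′ to 3′, to show what kind of promoter these genes have, with the 6-base GC box in capitals. The windows are chr8:8661243-8661492 (minus strand) for Efnb2, chr10:94944846-94945095 (minus strand) for Plxnc1 and chrX:99135811-99136060 (plus strand) for Efnb1.
Efnb2: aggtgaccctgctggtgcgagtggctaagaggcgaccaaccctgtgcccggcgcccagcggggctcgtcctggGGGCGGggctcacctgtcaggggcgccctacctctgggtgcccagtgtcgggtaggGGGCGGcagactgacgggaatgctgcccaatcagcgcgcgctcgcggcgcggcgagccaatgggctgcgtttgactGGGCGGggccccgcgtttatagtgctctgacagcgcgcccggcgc
Plxnc1: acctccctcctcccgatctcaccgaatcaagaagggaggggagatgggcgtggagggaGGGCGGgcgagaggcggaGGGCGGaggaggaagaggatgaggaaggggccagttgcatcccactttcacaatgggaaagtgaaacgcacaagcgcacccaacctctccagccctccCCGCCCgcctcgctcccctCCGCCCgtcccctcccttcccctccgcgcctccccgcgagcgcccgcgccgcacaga
Efnb1: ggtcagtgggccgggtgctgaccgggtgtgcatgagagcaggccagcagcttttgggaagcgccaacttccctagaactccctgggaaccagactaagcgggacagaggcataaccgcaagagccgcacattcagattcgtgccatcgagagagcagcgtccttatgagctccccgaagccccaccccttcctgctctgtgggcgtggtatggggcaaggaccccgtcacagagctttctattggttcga
The GC box was searched as GGGCGG or CCGCCC on either strand, overlapping matches counted. Efnb2 holds 3 and Plxnc1 4, and in the Efnb1 window these letters do not occur. A RefSeq window of 300 bases around the start was found for 57 members, of which 71.9% hold a GC box, as do 63.6% of the 11518 genes of the table with such a window. The GC content of the shown windows was 72.0%, 68.8% and 60%. A match is a match of letters and says nothing of binding.

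The Slits, secreted ligands of the Robo receptors known for midline repulsion and for vessel growth, were all 3 higher with treatment. Slit3 (chr11:35121224-35708507, plus strand) had the largest log2 fold change of all members. Its level was 3.41 CPM in the lowest, 9.89 in the median and 20.3 in the highest PBS mouse, and 7.94, 20.1 and 29.7 CPM in the HsTX1[R14A] mice. The 3 treated females held 27.02 to 29.7 CPM, above every other mouse, and 8 of 9 treated mice lay above the PBS median while the groups overlapped below 20.3 CPM. Treated over control, the difference was 1.02 ± 0.26 on the log2 scale (SE, edgeR adjusted p = 0.0171), and 0.70 with the trends removed (limma adjusted p = 0.0111). Slit1 ran from 6.11 to 50.2 CPM in PBS mice (median 24.9) and from 11.6 to 97.6 CPM in HsTX1[R14A] mice (median 37.4), with 1 treated female, number 71, far above the rest. This gave a log2 fold change of 0.87 ± 0.30 (edgeR adjusted p = 0.034). Slit2 went from a median of 16.7 CPM (13.2 to 22.95) to 22.3 CPM (15.9 to 32.6), a log2 fold change of 0.39 ± 0.11 (edgeR adjusted p = 0.0216). With the trends removed Slit1 gave 0.40 and Slit2 0.10, and neither was called (limma adjusted p = 0.12 and 0.545). With the length slope as a covariate the 3 Slits stayed positive, at 0.19, 0.02 and 0.16 for Slit3, Slit1 and Slit2, and were not called.

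Of the 4 Robo receptors, Robo1 and Robo2, the main Slit receptors on axons, were higher. Robo1 ran from 20.7 to 44.6 CPM in PBS mice (median 29.96) and from 25.5 to 52.8 in HsTX1[R14A] mice (median 40.6), with 4 treated mice above every PBS mouse. Robo1 had a log2 fold change of 0.46 ± 0.13 and that of Robo2 0.28 ± 0.10 (edgeR adjusted p = 0.019 and 0.0393). With the trends removed neither was called, at 0.12 and 0.13 (limma adjusted p = 0.358 and 0.213), and with the slope covariate they gave 0.14 and 0.052. Robo4, a receptor of endothelium, had a log2 fold change of 0.55 ± 0.23 (edgeR adjusted p = 0.0737) at a low level, 0.385 CPM per kb. Robo3, known for commissural axons, spread widely, at 2.48 to 20.01 CPM in PBS and 6.28 to 27.5 CPM in HsTX1[R14A] mice, and its edgeR adjusted p was 0.994.

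Plexins, the receptors of semaphorins, were the family with the most calls: 8 of 9 were higher, all but Plxnb3, with a family median log2 fold change of 0.63. This direction did not hold in every analysis, since with the length slope as a covariate 4 of the 9 were positive. Plxna1, a class A plexin that forms receptors for class 3 and class 6 semaphorins, ran from 9.30 to 73.1 CPM in PBS mice with a median of 33.3. In HsTX1[R14A] mice it ran from 17.96 to 98.9 CPM with a median of 73.4. The lowest PBS values were those of PBS female 103 and PBS male 90, and 5 treated mice lay above every PBS mouse. The log2 fold change was 1.00 ± 0.30 (edgeR adjusted p = 0.0234). It was 0.43 with the trends removed (limma adjusted p = 0.0243), and Plxna1 was the 1 plexin still called higher there. The other class A plexins gave log2 fold changes of 0.54 (Plxna2), 0.63 (Plxna4) and 0.71 (Plxna3).

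Plxnc1, the receptor of Sema7a, showed a smaller and tighter difference. It lay between 30.6 and 55.2 CPM in PBS mice (median 43.5) and between 43.5 and 74.9 CPM in HsTX1[R14A] mice (median 50.6), and all 9 treated mice were above the PBS median. A log2 fold change of 0.41 ± 0.10 was found (edgeR adjusted p = 0.0153), and one of 0.10 with the trends removed (limma adjusted p = 0.577). Plxnd1, a receptor in vessels and neurons, and the class B plexins Plxnb1 and Plxnb2, which bind class 4 semaphorins, gave 0.77, 0.75 and 0.58. Plxnb3, found mainly in oligodendrocytes, had medians of 17.6 CPM in PBS and 19.7 CPM in HsTX1[R14A] mice and a log2 fold change of 0.14 ± 0.17 (edgeR adjusted p = 0.525). With the trends removed it was called lower (-0.35, limma adjusted p = 0.0172).

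The neuropilins divided. Nrp2, co-receptor for Sema3f and Sema3c among others, was higher: PBS mice held 13.6 to 46.5 CPM (median 26.1) and HsTX1[R14A] mice 27.05 to 78.3 CPM (median 37.2). All 9 treated mice lay above the PBS median and 3 above every PBS mouse. For Nrp2 the log2 fold change was 0.72 ± 0.20 (edgeR adjusted p = 0.02), and 0.39 with the trends removed, where it was not called (limma adjusted p = 0.0786). Nrp1, co-receptor for Sema3a and for VEGF, ran from 29.2 to 53.9 CPM in PBS and from 26.96 to 59.7 CPM in HsTX1[R14A] mice, and 8 of 9 treated mice lay below the PBS median of 44.8 CPM. Its log2 fold change was -0.09 ± 0.12 (edgeR adjusted p = 0.545), and whether the 2 genes differ in response was not tested.

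Among the ligands of plexins, the secreted class 3 semaphorins had 0 of 7 members called in either direction by edgeR, with 1 of them, Sema3f, at an unadjusted p under 0.05, and a median log2 fold change of 0.01. Sema3f, a repellent read through Nrp2, had medians of 6.76 CPM in PBS and 9.26 CPM in HsTX1[R14A] mice and a log2 fold change of 0.47 ± 0.20 (edgeR adjusted p = 0.0739). Sema3g, expressed in vessels, gave 0.51 ± 0.25 (edgeR adjusted p = 0.116). Sema3c and Sema3d had the most negative values after Efna1, at -0.19 ± 0.10 and -0.25 ± 0.13 (edgeR adjusted p = 0.132 and 0.134). In both, 7 of the 9 treated mice lay below the PBS median. Sema3a and Sema3b had fold changes near 0 with standard errors of 0.11 and 0.25 on the log2 scale.

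The membrane-bound semaphorins of classes 4 to 7 had 6 of 13 members called higher (Sema4c, Sema4d, Sema4f, Sema5b, Sema6a and Sema6b) and 0 lower, and all 13 had a positive log2 fold change, although 4 of 13 did with the length slope as a covariate. Sema4f, a transmembrane semaphorin of the postsynaptic density, had the smallest p of them. It ran from 8.94 to 27.6 CPM in PBS mice (median 16.5) and from 15.5 to 36.6 CPM in HsTX1[R14A] mice (median 25.6). The groups overlapped, with 8 of 9 treated mice above the PBS median and 3 above every PBS mouse. Sema4f had a log2 fold change of 0.66 ± 0.18 (edgeR adjusted p = 0.0181), and 0.39 with the trends removed (limma adjusted p = 0.0248). Sema4d, the ligand of plexin B1, went from a median of 22.4 CPM (9.93 to 32.8) to 35.1 CPM (16.2 to 39.9). This made a log2 fold change of 0.59 ± 0.19 (edgeR adjusted p = 0.0257), and 0.36 with the trends removed (limma adjusted p = 0.031).

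The semaphorins highest per kilobase were not those with the largest fold changes. Sema6b had medians of 67.7 and 91.8 CPM in PBS and HsTX1[R14A] mice and a log2 fold change of 0.44 ± 0.15 (edgeR adjusted p = 0.0352), which was 0.02 with the trends removed. Sema7a ran from 36.2 to 136 CPM in PBS and from 59.99 to 151 CPM in HsTX1[R14A] mice, with a log2 fold change of 0.24 ± 0.20 (edgeR adjusted p = 0.354). Its receptor Plxnc1 was called and Sema7a was not, which does not show that they differ.

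The ephrins held calls in both directions. Ephrin-B ligands are transmembrane proteins that signal back into the cell that carries them, and Efnb1 and Efnb2 were higher. Efnb2 lay between 25.8 and 49.1 CPM in PBS mice (median 36.7) and between 42.1 and 65.3 CPM in HsTX1[R14A] mice (median 48.8). All 9 treated mice were above the PBS median, and 8 of the 12 PBS mice were below the lowest treated one. The log2 fold change was 0.51 ± 0.11 (edgeR adjusted p = 0.0151). Efnb1 lay between 5.998 and 11.02 CPM (median 8.57) against 9.15 to 16.2 CPM (median 12.6), with a log2 fold change of 0.54 ± 0.13 (edgeR adjusted p = 0.0153). Both were still called with the trends removed, at 0.32 each (limma adjusted p = 0.026 and 0.0189), and both stayed positive with the length slope as a covariate, at 0.30 and 0.23. The remaining ephrin-B, Efnb3, had medians of 94.2 CPM in PBS and 97.1 CPM in HsTX1[R14A] mice and was not called, with a log2 fold change of 0.15 ± 0.10 (edgeR adjusted p = 0.218) and -0.067 with the trends removed.

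Efna1, a ligand anchored to the membrane by a lipid and the one member called lower, has the shortest transcript of the 66 (1632 bases). Its level was 3.07 CPM in the lowest, 4.11 in the median and 5.63 in the highest PBS mouse, against 2.19, 2.80 and 3.88 CPM in the HsTX1[R14A] mice. All 9 treated mice were below the PBS median, 6 were below every PBS mouse, and 8 PBS mice were above every treated one. The log2 fold change was -0.55 ± 0.13 (edgeR adjusted p = 0.0163), and it was -0.39 both with the slope as a covariate (edgeR adjusted p = 0.36) and with the trends removed (limma adjusted p = 0.0322). The other ephrin-A ligands, Efna2, Efna3 and Efna5, gave 0.18, -0.08 and 0.19 and were not called.

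**Figure D3:**
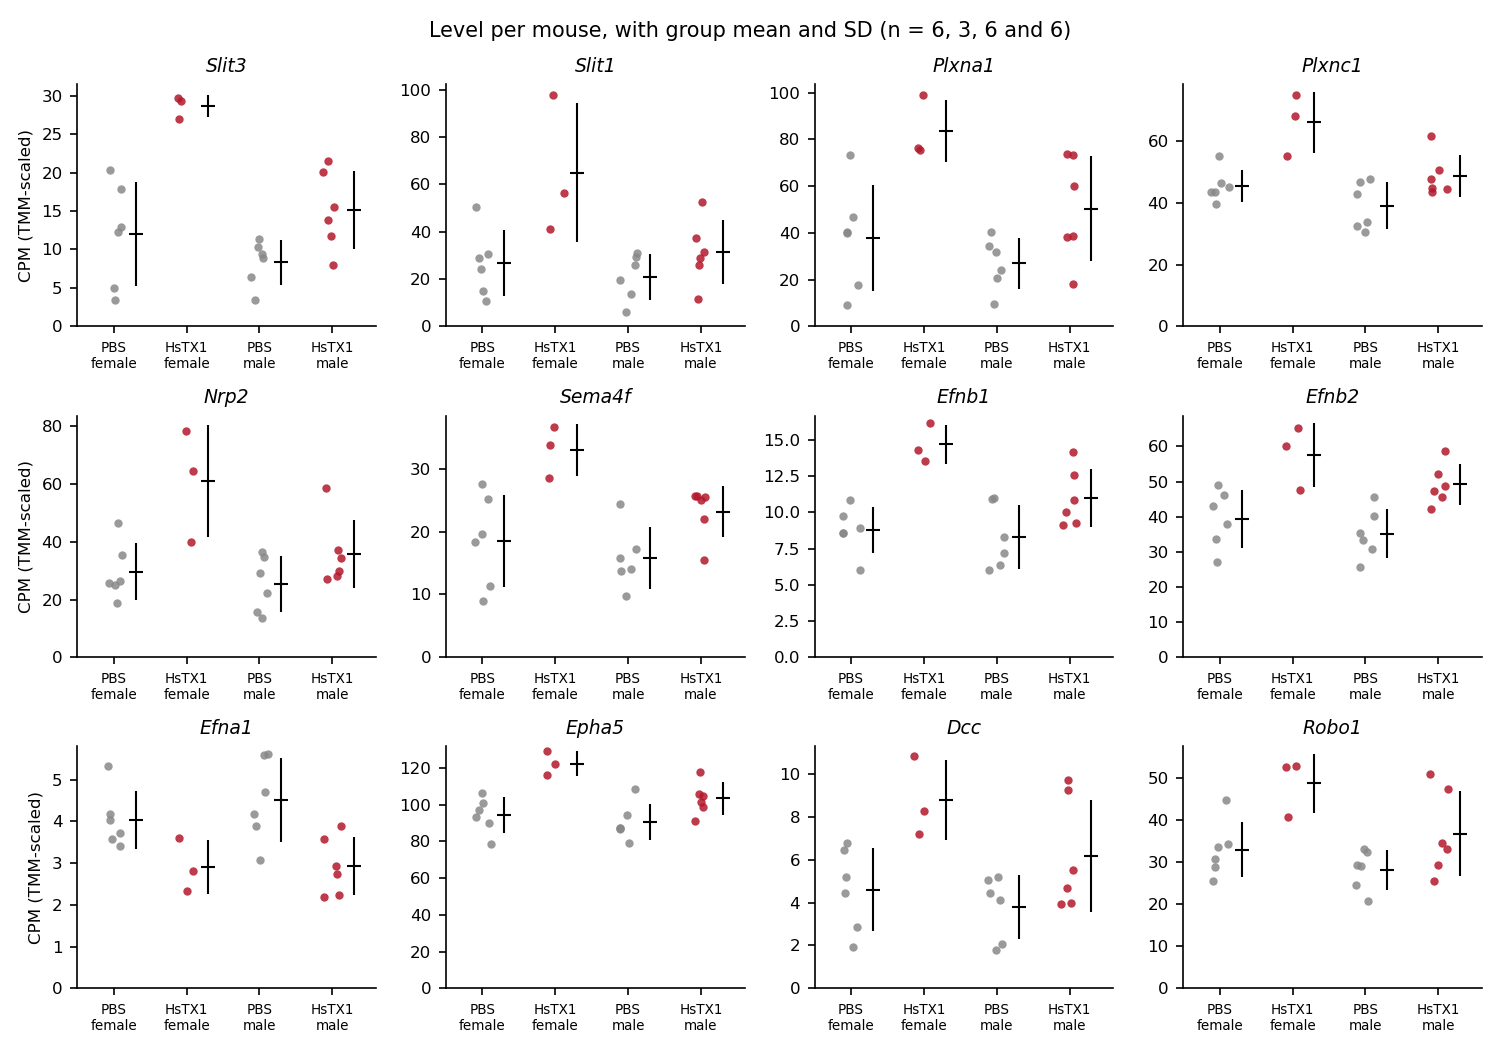
Level of 12 members in each mouse, in TMM-scaled CPM on axes that start at 0, for PBS (gray) and HsTX1[R14A] (red) mice of each sex, with the mean and SD of each group at its right (n = 6, 3, 6 and 6). Efna1 lies lower in treated mice of both sexes and the other 11 higher, with groups that overlap in every panel when the sexes are joined.

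Of the Eph receptors, which are tyrosine kinases, 3 of the 8 EphA and 1 of the 5 EphB genes were higher and 0 lower. Across all genes 15.5% were higher and 16.1% lower, so the EphB share of 20% is near that of all genes. With the trends removed 0 EphB genes were called and their median log2 fold change was -0.10. With the length slope as a covariate 0 of the 5 were positive. Epha5, abundant in forebrain neurons, had a small difference: 78.7 to 108 CPM in PBS mice (median 91.6) and 91.2 to 129 CPM in HsTX1[R14A] mice (median 106). Of the treated mice 8 of 9 were above the PBS median. Its log2 fold change was 0.26 ± 0.07 (edgeR adjusted p = 0.017), and it was 0.25 with the trends removed (limma adjusted p = 0.0306), with 0.21 under the slope covariate. Epha6 gave 0.54 ± 0.17 (edgeR adjusted p = 0.0254) and 0.55 with the trends removed (limma adjusted p = 0.0238). Epha10, which lacks a working kinase, gave 0.57 ± 0.17 (edgeR adjusted p = 0.0215) and 0.14 with the trends removed (limma adjusted p = 0.188).

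Epha4, the highest Eph receptor per kilobase, ran from 76.1 to 149 CPM in PBS and from 96.6 to 168 CPM in HsTX1[R14A] mice. Its log2 fold change was 0.23 ± 0.12 (edgeR adjusted p = 0.143). Ephb3, known with Ephb2 for axon crossing and spines, went from a median of 10.6 CPM (4.12 to 16.4) to 14.6 CPM (9.26 to 20.01), a log2 fold change of 0.52 ± 0.19 (edgeR adjusted p = 0.0456). It was 0.14 with the trends removed (limma adjusted p = 0.422) and -0.025 with the slope covariate. Ephb2 had a like value, 0.57 ± 0.22, with an edgeR adjusted p of 0.0533. With the trends removed or the length slope as a covariate Ephb2 was negative, at -0.10 and -0.12. Epha3 and Ephb1 gave log2 fold changes of 0.01 ± 0.09 and 0.02 ± 0.10.

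Of the netrins and their receptors, Ntn1, the founding secreted netrin, was higher, and 4 of the 5 receptors were higher too. Ntn1 ran from 2.63 to 14.5 CPM in PBS mice (median 7.97) and from 5.31 to 16.4 CPM in HsTX1[R14A] mice (median 12.6). Its log2 fold change was 0.66 ± 0.25 (edgeR adjusted p = 0.0487), the adjusted p nearest to the threshold among the called members. It was 0.24 with the trends removed (limma adjusted p = 0.277) and -0.065 in mice of name form SAMP alone. Ntn4, a netrin of basement membranes, gave 0.29 ± 0.12 (edgeR adjusted p = 0.0616).

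Dcc, the attractive netrin receptor, was scarce, at 1.79 to 6.79 CPM in PBS mice (median 4.44) and 3.95 to 10.8 CPM in HsTX1[R14A] mice (median 7.20), and 5 treated mice lay above every PBS mouse. Dcc had a log2 fold change of 0.79 ± 0.24 (edgeR adjusted p = 0.0232), and 0.60 with the trends removed (limma adjusted p = 0.0262). Of the repulsive receptors, Unc5a gave 0.81 ± 0.26, Unc5c 0.35 ± 0.10 and Unc5d 0.35 ± 0.11 (edgeR adjusted p = 0.0267, 0.0191 and 0.0279). With the trends removed Unc5a stayed called at 0.44 (limma adjusted p = 0.0295), and Unc5c and Unc5d did not, at 0.11 and 0.13 (limma adjusted p = 0.358 and 0.518). Unc5a was -0.022 with the slope covariate, and Unc5d was -0.13 in SAMP mice alone. Unc5c, the steadiest of them, lay between 23.8 and 40.4 CPM in PBS mice (median 32.2) and between 31.2 and 53.5 CPM in HsTX1[R14A] mice (median 41.6). Unc5b gave 0.55 ± 0.23 (edgeR adjusted p = 0.0731), and Unc5cl, the one caught by name, 0.26 ± 0.18 (edgeR adjusted p = 0.278).

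Read over all families, 12 of 32 ligands were higher and 1 lower, and 19 of 33 receptors were higher and 0 lower. Across all genes 15.5% were higher and 16.1% lower. The median log2 fold changes of ligands and receptors were 0.40 and 0.53. The receptors also have longer transcripts (median 6497 against 4511 bases). With the trends removed 5 members of each were called higher and 1 of each lower, beside 9.16% and 6.01% of all genes. Exons of 15 members overlap those of another gene, mostly on the other strand (for instance Plxna1 with Gm26811, Unc5a with Hk3 and Plxna4 with Plxna4os3), and 9 of the 15 were called higher. The labels name a SMARTER mRNA-Seq kit where the methods name an MGI directional kit, so whether strand was used in counting is uncertain, and reads of such pairs may be mixed.

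Mouse by mouse, the members were high or low together, and with them the length slope. The median over the 66 members of log2 CPM centered per gene ran from -0.96 to 0.44 in PBS mice and from -0.43 to 0.60 in HsTX1[R14A] mice. PBS female 103 and PBS male 90 had the lowest medians, -0.96 and -0.66, and also the lowest length slopes, -0.38 and -0.34. Between 7 and 57 of the 66 members lay above their own mean in a single mouse. This was not counted over all genes or other long transcripts, so it does not set the members apart. Without PBS female 103 and PBS male 90, 22 members were higher and 1 lower (10.3% and 7.36% of all genes). All 22 were among the 31, and the median log2 fold change was 0.34. Leaving out any 1 mouse gave 17 higher members without PBS male 90 and 40 without HsTX1[R14A] male 93, with 18 without HsTX1[R14A] female 71 and 19 without either HsTX1[R14A] male 81 or 88. The share of all genes called higher moved too, to 7.72% without PBS male 90, 20.1% without male 93, 10.2% without female 71 and 9.45% without male 81 or 88. The 15 members called under each of these 21 omissions were Slit3, Robo1, Plxna1, Plxna2, Plxnc1, Plxnd1, Nrp2, Sema4f, Efnb1, Efnb2, Efna1, Epha5, Epha10, Dcc and Unc5c. All of these lost their call with the length slope as a covariate. The share of all genes called under every omission was not counted.

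**Figure D4:**
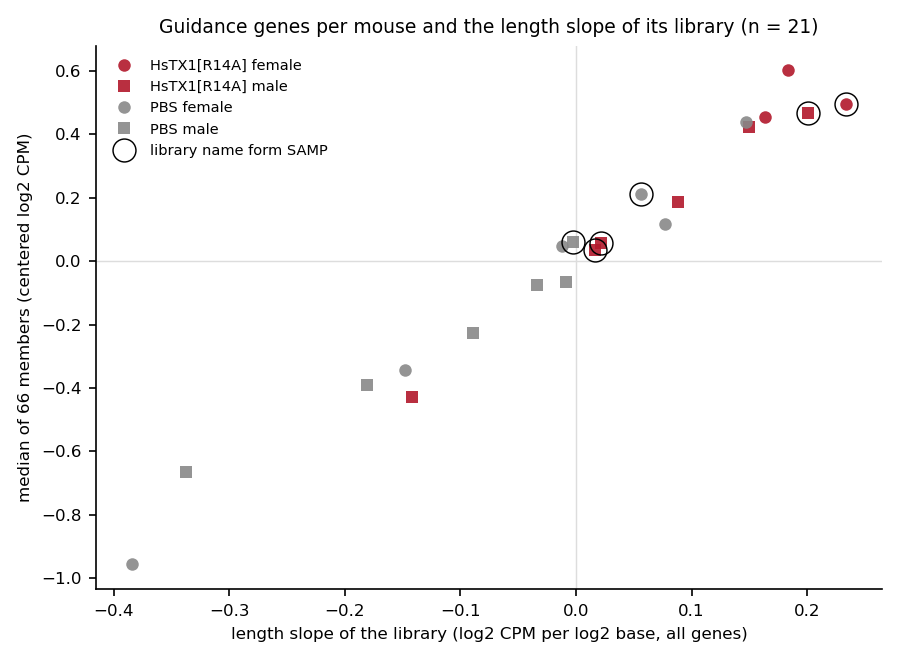
Median over the 66 members of the centered log2 CPM in each mouse against the length slope of its library, both without unit beyond log2, for PBS (gray) and HsTX1[R14A] (red) females (circles) and males (squares), with libraries of name form SAMP ringed. The mice run from PBS female 103 (slope -0.38, median -0.96) to HsTX1[R14A] females 98 and 71 (slopes 0.23 and 0.18, medians 0.50 and 0.60).

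In neither form of library name were members called alone. In the 15 SAMP8 mice edgeR called 0 members, with a median log2 fold change of 0.50 and positive values for all 31 higher members. In the 6 SAMP mice it called 0, with a median of 0.19 and positive values for 29 of the 31, the exceptions being Ntn1 and Unc5d. The 31 were picked in a fit that holds these same mice, so their signs here are no separate support. Across all genes 0 were called in either form, and 5797 genes in SAMP8 and 532 in SAMP had an unadjusted p under 0.05. With the name form as a covariate 13 members were higher and 1 lower, against 5.98% and 6.28% of all genes, and with 1 surrogate variable 15 were higher and 1 lower, against 6.45% and 6.49%.

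The sexes were compared within the same genes. In females alone (6 PBS, 3 HsTX1[R14A]) edgeR called 0 members, 26 had an unadjusted p under 0.05 (20.4% of all genes did), and the lowest adjusted p was 0.244. In males alone (6 and 6) it called 0, with 25 members at an unadjusted p under 0.05 (27.6% of all genes) and a lowest adjusted p of 0.138. DESeq2 called 2 members higher in females, Efnb1 and Plxnc1, beside 0.475% of all genes higher and 0.489% lower. In males it called Efnb2, Plxna2 and Sema5b higher and Efna1 lower, beside 2.55% and 2.42% of all genes, and limma called 0 in both sexes. The median log2 fold change of the members was 0.54 in females and 0.36 in males, where 60 and 57 of the 66 were positive. The 31 higher members were positive in both sexes, but they were picked in a fit that holds these same mice. The treatment by sex term was called for 0 members by edgeR, 0 had an unadjusted p under 0.05 (1.66% of all genes did), and DESeq2 called 0 with 1 under 0.05.

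The members with the smallest interaction p were Sema3b and Unc5cl. Sema3b had medians of 2.17 CPM in PBS and 3.57 CPM in HsTX1[R14A] females, and of 2.16 and 1.63 CPM in males. The difference between the sexes' log2 fold changes, female minus male, was 1.02 ± 0.49 (edgeR unadjusted p = 0.0503, adjusted p = 1.00). For Unc5cl it was -0.63 ± 0.33 (edgeR unadjusted p = 0.0838). Between females and males, whatever the treatment, edgeR, limma and DESeq2 called 0 members (edgeR called 0.0245% of all genes higher and 0.0307% lower in females), 10 had an edgeR unadjusted p under 0.05 against 10.8% of all genes, and the lowest adjusted p was 0.446. With sample quality weights 19 members were called between the sexes, as were 15.8% of all genes. The 2 smallest p-values were those of Plxnc1, 0.31 ± 0.10 higher in females on the log2 scale (edgeR unadjusted p = 0.00356), and Slit3, 0.70 ± 0.26 (edgeR unadjusted p = 0.0139).

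Of 18 listed guidance genes that the rule did not take (adhesion molecules, other cues and Efnb3), 11 were higher and 0 lower. Their median log2 fold change was 0.45, and 4 were higher and 1 lower with the trends removed. Beside this list and the next stand the shares of all genes, 15.5% higher and 16.1% lower in edgeR. With the trends removed these shares were 9.16% and 6.01%. Both lists were chosen with earlier results of these data known. L1cam, an axonal adhesion molecule, had medians of 53.3 CPM in PBS (26.3 to 105) and 122 CPM in HsTX1[R14A] mice (39.7 to 159) and a log2 fold change of 0.91 ± 0.23 (edgeR adjusted p = 0.017). Rgmb, a ligand of neogenin, gave 0.47 ± 0.12 (edgeR adjusted p = 0.017). Of 51 rows for 50 genes that carry guidance signals inside the cell, 19 were higher and 4 lower (8 and 0 with the trends removed), where Mical3 has 2 identifiers that were both higher. Tiam1, an exchange factor for Rac, gave 0.80 ± 0.18, and Dpysl2, a tubulin-binding mediator of semaphorin signals, 0.29 ± 0.07 (edgeR adjusted p = 0.015 and 0.016). The 4 lower were the small GTPases Cdc42 (-0.31 ± 0.09) and Rhoa (-0.21 ± 0.06), the adaptor Nck1 and the kinase Rock1.

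Marker lists of cell types and regions are set beside the 15.5% of all genes called higher and the 16.1% called lower. Of 11 neuron markers 2 were higher and 0 lower, with a summed level of 5719 to 8679 CPM in PBS mice and 7076 to 10059 CPM in HsTX1[R14A] mice. Of 10 oligodendrocyte markers 6 were lower and 0 higher, with a summed level of 4624 to 7041 CPM in PBS mice and 3512 to 5151 CPM in HsTX1[R14A] mice. Of 10 microglia markers 4 were lower (424 to 625.5 CPM summed against 357 to 540), of 10 astrocyte markers 4 were lower and 1 higher (3411 to 5138 against 3430 to 5186), of 6 oligodendrocyte precursor markers 2 were higher (367 to 465 against 373 to 487), and of 10 endothelial and mural markers 1 was higher (174 to 239 against 193 to 244). Choroid plexus (8), cerebellar (9) and striatal (8) markers had 0 calls. Choroid plexus markers summed to 74.6 to 1146 CPM in PBS mice against 62.3 to 863 in HsTX1[R14A] mice. Cerebellar markers summed to 230 to 438 against 208 to 888, and striatal markers to 884 to 1942 against 473 to 1970. Calb1 alone gave 130 to 255 CPM of the cerebellar sum in PBS and 126 to 213 in HsTX1[R14A] mice. Since Gabra6, Pcp2 and Fat2 were each under 1 CPM in 16 mice, this sum does not show a steady cerebellar content. In RNA of whole tissue, fewer cells of a type and less RNA per cell cannot be told apart, and the part of these shifts in the members' differences was not tested.

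**Figure D5:**
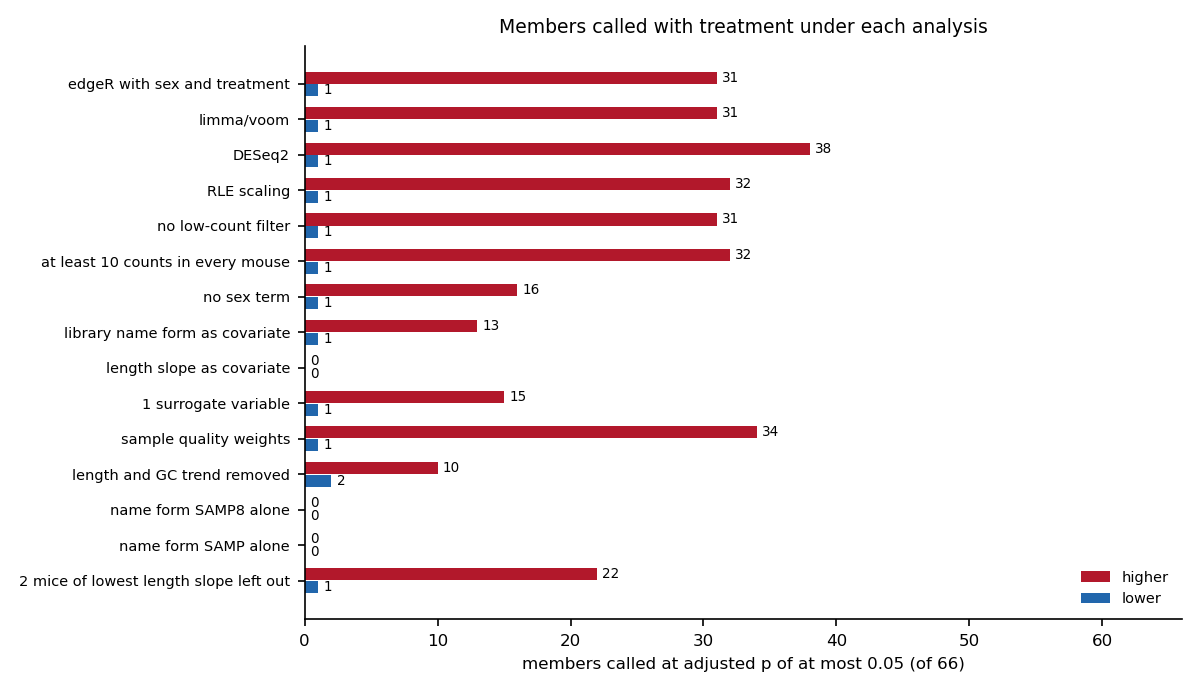
Number of the 66 members called higher (red) and lower (blue) with treatment at an adjusted p of at most 0.05 under each analysis, with the edgeR analysis described in the text at the top. Counts run from 38 higher with DESeq2 to 0 with the length slope as a covariate or in either name form alone.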

How the data were processed

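Brain RNA of 21 SAMP8 mice was sequenced, 1 library per mouse. The methods name whole brain, but Gabra6, Pcp2 and Fat2 were each under 1 CPM in 16 of the 21 mice. How much cerebellum each sample held is therefore uncertain. Per the labels and the methods, the authors aligned reads to GRCm38 (mm10) with STAR and deposited the estimated counts per gene that Salmon gave. Of these estimated counts, as deposited by the authors, 90.496% lay within 0.01 of a whole number. Counts were rounded before testing. A further 53 per-sample columns were not used: 16 of counts whose names match none of the 21 samples, and 37 of CPM, which cover those columns and the 21 samples again. Also left out were columns of the authors' own fold changes and p-values. Groups came from the labels.

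After a filterByExpr filter and TMM scaling, each gene went through the quasi-likelihood test of edgeR 4.0.16 (R 4.3.3), fitted on treatment plus sex. Benjamini-Hochberg adjustment covered 16303 genes, at a threshold of 0.05. Standard errors are the log2 fold change divided by the root of F. Log2 CPM used a prior count of 2. The study's own tool, limma/voom (3.58.1), DESeq2 1.42.0 and sva 3.50.0 served as alternatives, with other scalings, filters, covariates and left-out mice. The length slope and the trend removal (loess, span 0.5) used longest transcripts of GENCODE vM21, known for 16224 of the genes tested. On simulated counts 188 of 200 genes changed 2-fold among 16293 genes were recovered, with 4 false calls. The simulated libraries held no length slope, so they do not show the error rate where the slope overlaps with treatment. The 48 pairs of libraries of one group all differed by more than sampling noise (mean chi-square per gene 7.58 to 288).

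Named with values were the 2 members of smallest treatment p in each family, the 3 highest and 3 lowest levels, the extreme fold changes, members called against the common direction, and the 2 smallest p for sex and interaction. Further members were named after their values were seen, to complete their families. The members and lists were chosen with earlier results of these data known.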

Additional observations from a re-analysis of the deposited data

Results flagged for a closer look

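In 99 sets of values of one member within a group of 6 mice, 3 held a mouse farther from the rest than Dixon's criterion allows (gap over range above 0.625), where chance gives about 1 in 20. Sema3g was 2.28 CPM in PBS male 102, against 0.942 to 1.36 CPM in the other PBS males. Sema4f was 15.5 CPM in HsTX1[R14A] male 93, the treated mouse of lowest length slope, against 21.9 to 25.6 CPM in the other treated males. Nrp2 was 58.6 CPM in HsTX1[R14A] male 88, against 27.05 to 37.2 CPM in the other treated males.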

How the results depend on the processing

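The count of 31 higher members and 1 lower was 31 and 1 with limma/voom, which called the same 32 members, and 38 and 1 with DESeq2 (19.5% and 18.3% of all genes). Higher members numbered 16 without the sex term (8.76% of all genes), 13 with the name form as a covariate, 15 with 1 surrogate variable, 10 with length and GC trends removed, and 0 with the length slope as a covariate or in either name form alone. Lower members were 2 with the trends removed and 0 with the slope covariate or in either name form. Leaving out each mouse gave 17 to 40 higher and 1 to 2 lower members. With the 2 mice of lowest length slope left out, a choice made after seeing the data, 22 were higher and 1 lower. The median log2 fold change of the members was -0.024 with the slope covariate. Members differing between the sexes numbered 19 with sample quality weights (15.8% of all genes), and DESeq2 called 2 members in females and 4 in males. The cause of these shifts was not tested.

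With the slope covariate the sign turned for 31 of the 66 members, 8 of them called: Ephb3, Sema4d, Sema6b, Unc5a (-0.022), Plxna3 (-0.015), Plxna4 (-0.012), Plxnb1 (-0.071) and Plxnb2 (-0.076). It turned for 8 members with the trends removed, 0 of them called, and for 9 in SAMP mice alone, of which Ntn1 and Unc5d (-0.13) were called. Among the 33 members chosen by the naming rule, it turned with the slope covariate for Ephb3 (-0.025), Ephb2 (-0.12), Sema3f (-0.17), Sema3g (-0.14), Sema4d (-0.011), Epha2 (-0.25), Sema6b (-0.024), Epha4 (-0.076) and Sema7a (-0.21). Among these 33 it also turned with the trends removed for Ephb2 (-0.10) and Nrp1 (0.052), and in SAMP mice alone for Sema3g (-0.30), Ntn1 (-0.065), Nrp1 (0.16), Epha2 (-0.13) and Sema3c (0.012). Sema7a was -0.049 in SAMP8 mice alone and -0.012 with 1 surrogate variable. Sema3b, at -0.0030 in the edgeR analysis, was 0.036 with limma/voom, 0.0026 with RLE scaling, 0.0042 with at least 10 counts in every mouse, 0.12 with the name form, 0.094 with quality weights, 0.097 in SAMP8 and 0.069 in SAMP mice, and ran from -0.19 to 0.13 when single mice were left out. Per the methods, mice were randomized to peptide or PBS within each cage. The labels do not give the cage, so cage was in no model. No paired analysis was possible either, since the mouse numbers link no mouse to one of another group. Depth was low for Epha2 (0 to 48 counts per mouse) and Unc5cl (7 to 35).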
